A study of Mus musculus with 14 samples.

Results

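The importins, exportins, Ran cycle and mRNA export genes are 33 genes whose products carry protein and RNA through the nuclear pore. They were taken by symbol from a list made for the pathway, and each symbol was found among the 77981 genes counted in these mouse liver tumours. They comprise 5 importins alpha, 11 importins beta and transportins, 7 exportins, 6 Ran cycle genes and 4 mRNA export factors. Of the 33, 32 were counted well enough to be tested, among 13997 genes in all. Nutf2 was not, with 7 counts over the 14 libraries.

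Tumours of 3 genotypes were sequenced by their messenger RNA 3′ ends, 1 library a tumour: 4 libraries from double knockout animals lacking Cdk16 and Cdk18 (DKO), 5 from Cdk18 knockout animals (CDK18KO) and 5 from wild-type animals (WT). All 3 groups carried tumours started by hydrodynamic injection of c-Myc and β-catenin plasmids, a method that transfects hepatocytes in part of the liver. Per the labels' protocols, Cdk16 was removed after tumours had formed: tamoxifen, 75 mg/kg on 5 days, was given to Cdk16 fl/fl animals with Cre-ERT2, a Cre recombinase active in the presence of tamoxifen, and to Cre-ERT2 animals as controls, and tissue was collected 10 days later. The labels do not say whether the WT and CDK18KO animals sequenced here were such controls, so in the DKO comparisons the loss of Cdk16 cannot be told apart from Cre and tamoxifen. The same protocols name endpoints of 15 mm in diameter and 8 weeks for every sample. The promoter of the Cre-ERT2 gene and the ages of the animals are not given in the sources used here. Cdk16 and Cdk18 encode related kinases of the PCTAIRE family, and the comparisons ask how their loss changes RNA in Myc-driven liver tumours.

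Transport receptors of the karyopherin family take cargo through the nuclear pore, and the small GTPase Ran gives the direction. In the nucleus Rcc1 loads Ran with GTP, which releases import cargo and binds export cargo to exportins, and in the cytoplasm Rangap1 and Ranbp1 help Ran to hydrolyse the GTP, which ends the export cycle. Importin alpha is an adaptor that joins classical nuclear localisation signals to Kpnb1, and Cse1l brings it back to the cytoplasm. Bulk messenger RNA leaves by another route, through Nxf1 with Nxt1, loaded by Alyref and the helicase Ddx39b. Growing and dividing cells are known for high levels of several of these genes, and Ran cycle genes are often listed among genes that Myc binds.

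Total counts ran from 1442417 in WT 5 to 6068209 in WT 2. Cdk18 averaged 1.90 ± 1.51 CPM (counts scaled to a common library total) in DKO, 1.98 ± 1.06 CPM in CDK18KO and 4.76 ± 3.58 CPM in WT, and Cdk16 averaged 30.8 ± 15.4, 40.6 ± 14.3 and 49.1 ± 7.32 CPM in those groups (SD, n = 4, 5 and 5). The groups overlapped for both kinases, and the labels do not place the counted ends relative to the deletions, so these values do not check the labels. The 12 hepatocyte markers summed to 1032 to 14700 CPM in DKO, 566.1 to 7658 CPM in CDK18KO and 90.85 to 2639 CPM in WT. The tissue label is liver tumour, and in WT 1 the sum was 90.85 CPM. Y-linked genes summed to 347.6 CPM in CDK18KO 1, 204.3 CPM in WT 3 and 788.4 CPM in WT 5 and to at most 33 CPM elsewhere. The labels do not give the animals' sex. In bulk tissue, fewer cells of a type and less RNA per cell cannot be told apart.

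Because Myc was the driver in every group, the promoter windows of the members were searched for CACGTG, the E-box that Myc with Max binds. RefSeq windows on GRCm38.p6, from 250 bases before to 50 bases after a gene's start, were at hand for 26 of the 33 members. The E-box, which reads the same on both strands, stood in 5 of the 26 (19.2%), against 8.09% of 27025 genes. These are all genes with a window, whether or not they were counted well enough to be tested here. The 2 shares thus come from unlike sets of genes, and their difference was not tested. The 6 occurrences follow with 12 bases on either side, read on the gene's strand, with the E-box in capitals.
Ran, chr5:129020026-129020055, plus strand: gctcggccggccCACGTGacccgccgcccc
Ipo7, chr7:110018166-110018195, plus strand: gtgggagccagcCACGTGggccgtgtccgc
Tnpo2, chr8:85036726-85036755, plus strand: tacttattctctCACGTGactcaacttggc
Tnpo2, chr8:85036765-85036794, plus strand: tctgtgccagatCACGTGtgagtgcttcgc
Xpot, chr10:121626546-121626575, minus strand: agctccagggagCACGTGcgcggtcctcct
Ipo4, chr14:55635653-55635682, minus strand: tgtcggagtctcCACGTGccgatcctcccc

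The E-box of Ran began 118 bases before the RefSeq start, those of Tnpo2 155 and 116 bases before, and that of Ipo7 137 bases before. That of Xpot began 231 bases before the start, and that of Ipo4 lay inside the transcript, 14 bases after it. CCAAT, searched on both strands, stood in 13 of 26 members (50%) and 41.1% of the 27025 genes with a window. The CCAAT matches of Ipo9 and Ranbp1, the members with the smallest p in DKO against WT, are shown with 12 bases on either side. The match is in capitals, ATTGG being CCAAT on the opposite strand. It began 4 bases before the RefSeq start for Ipo9 and 72 bases before it for Ranbp1.
Ipo9, chr1:135430487-135430515, minus strand: gcggcttcgcggATTGGccgtacgcggga
Ranbp1, chr16:18248750-18248778, minus strand: ccgctgtcggagCCAATaaagctacactg

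A match of letters is a description of the window. Between DKO and WT, log2 fold changes of the members with an E-box were -0.46 for Ran, -0.26 for Tnpo2, -0.24 for Ipo7, -0.16 for Ipo4 and 0.02 for Xpot. None of these passed the edgeR test, with adjusted p between 0.38 and 0.977.

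In DKO against WT tumours, most of the transport genes stood slightly lower, and none passed the test across all genes. Log2 fold changes were below 0 for 30 of 32 members, against 52.1% of all genes tested, with a median of -0.34 for the members and -0.04 for all genes. All members were measured in the same libraries, whose mean member level differed also within a genotype. Counts of members below 0, here and by role, are therefore not counts of separate results. Ipo9, Ranbp1, Rcc1 and Alyref had the smallest p, with log2 fold changes of -0.66, -0.73, -0.87 and -1.08. Kpna1 (0.21) and Xpot (0.02) were above 0. The edgeR quasi-likelihood test called 0 members at an adjusted p under 0.05 (0.00714% of all genes, 1 gene), and DESeq2 called 1 member, Ipo9, where it called 7.41% of all genes. At an unadjusted p under 0.05, 4 members were lower and 0 higher, against 5.22% of all genes lower and 13.7% higher. With 1 library left out at a time, the members below 0 numbered 27 to 31, fewest without DKO 1, and the median lay between -0.44 and -0.28. With the hepatocyte marker level as a covariate, 17 of 32 members were below 0 and their median was 0.00.

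In CDK18KO against WT, 21 of 32 members were below 0 in log2 fold change, against 50.6% of all genes, with a median of -0.12 and an all-gene median of -0.01. The edgeR test called 0 members (0.00714% of all genes), DESeq2 called 0 members (6.14% of all genes), and at an unadjusted p under 0.05 Alyref alone was lower and 0 members were higher, against 5.31% of all genes lower and 11.6% higher. Single libraries moved this median: it was -0.22 with WT 2 left out, -0.20 with CDK18KO 3, -0.19 with CDK18KO 1, -0.08 with WT 4 and -0.05 with CDK18KO 4 left out. Under upper-quartile factors 30 of 32 members were below 0, with a median of -0.23 and an all-gene median of -0.13, and with the hepatocyte covariate 12 of 32 were, with a median of 0.09.

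In DKO against CDK18KO, where the labels differ by Cdk16, 26 of 32 members were below 0 against 51.8% of all genes, with medians of -0.25 for members and -0.02 for all genes. The edgeR test called 0 members (0% of all genes), DESeq2 called 0 (0.603% of all genes), and 0 members had an unadjusted p under 0.05 in either direction, against 1.86% of all genes lower and 3.94% higher. Without DKO 1 the median was -0.11. Each group enters 2 of the 3 comparisons, which therefore share libraries.

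**Figure D1:**
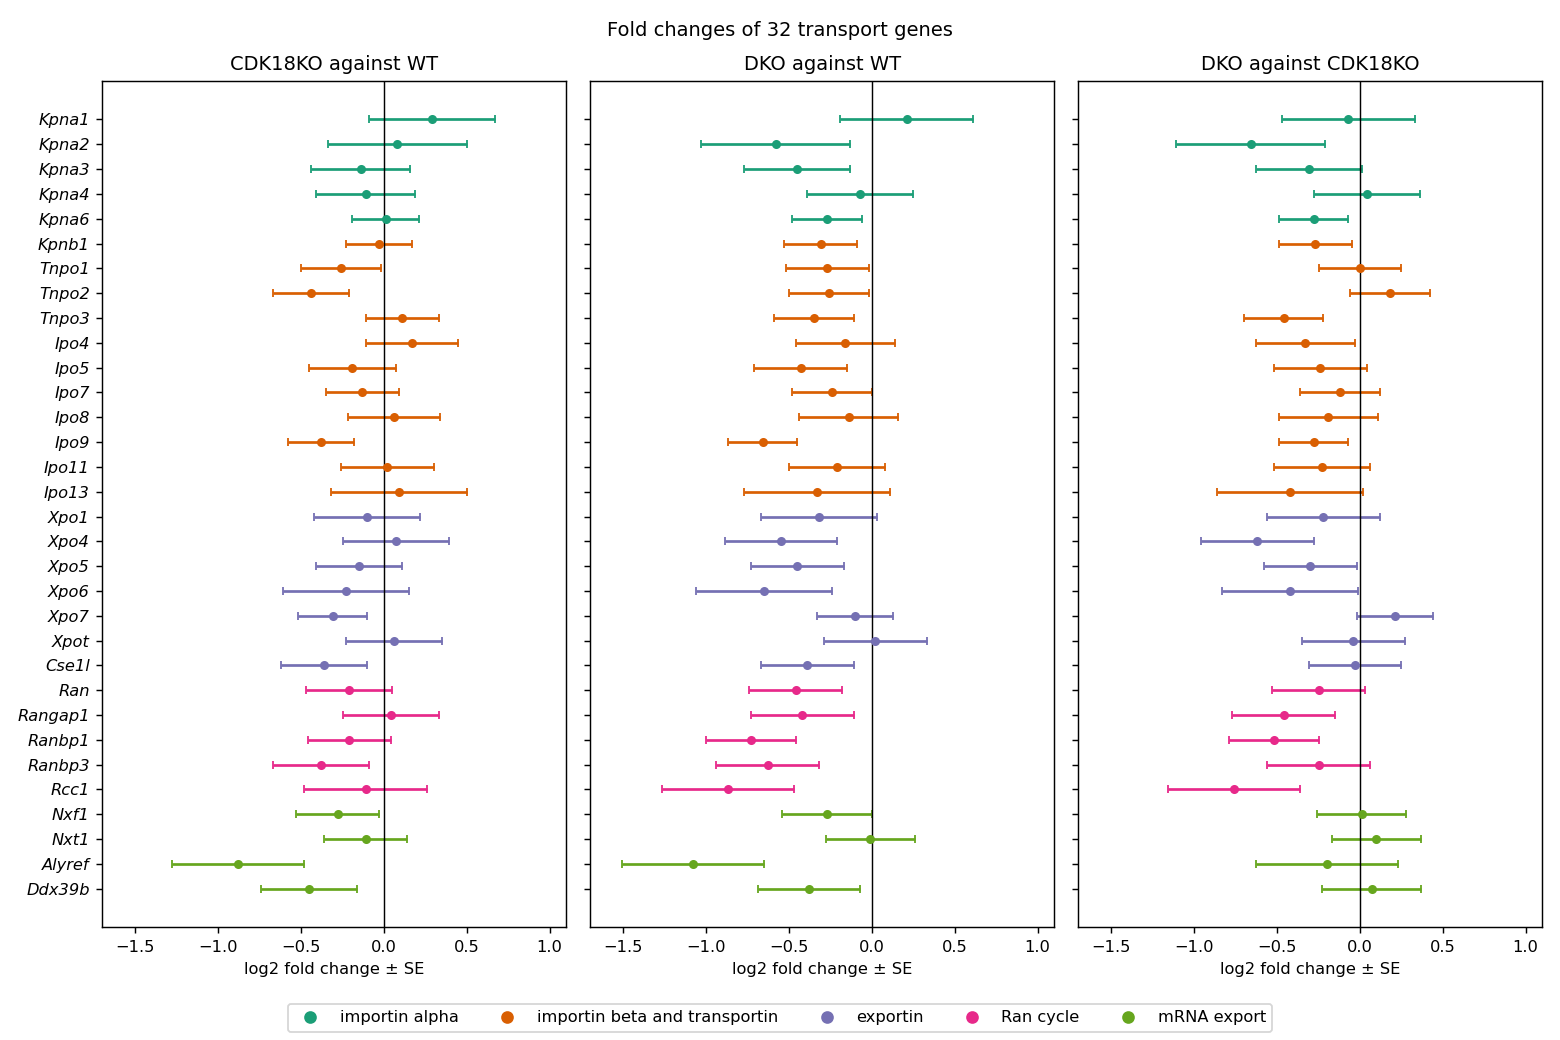
Log2 fold change (x axis) of each of the 32 members tested (y axis, coloured by role) in DKO against WT, CDK18KO against WT and DKO against CDK18KO, with bars of 1 SE from edgeR. Most points for DKO against WT lie left of 0, from -1.08 for Alyref to 0.21 for Kpna1, and none passed the test across all genes.

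The importins alpha, the adaptors for classical nuclear localisation signals, had a median log2 fold change of 0.01 in CDK18KO against WT, with 2 of 5 below 0. Between DKO and WT the median was -0.27, with 4 of 5 below 0. Kpna1 averaged 79.7 ± 29.8 CPM in DKO, 83.9 ± 46.0 CPM in CDK18KO and 68.8 ± 26.2 CPM in WT. It was the importin alpha with the widest spread after Kpna2, since CDK18KO 2 stood at 164 CPM and the other CDK18KO libraries at 56.8 to 80.6 CPM. Kpna3 averaged 96.0 ± 29.4 CPM in DKO, 119 ± 22.6 CPM in CDK18KO and 131 ± 49.6 CPM in WT. Kpna4, a close relative of Kpna3, averaged 97.5 ± 32.1, 94.6 ± 34.9 and 102 ± 20.8 CPM in the same groups. Kpna6, which belongs with Kpna1 in another subfamily, kept the narrowest range of all members, with 22.2 to 24.8 CPM in DKO, 23.6 to 32.7 CPM in CDK18KO and 23.6 to 30.9 CPM in WT. Its residual SD over libraries was 0.14 on the log2 scale, where the members ran from 0.14 to 0.64 with a median of 0.40 and all genes tested had a median of 0.67.

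Kpna2, the importin alpha most closely linked to dividing cells, had 15.1, 4.51, 8.42 and 15.6 CPM in DKO 1 to 4, 14.6, 15.4, 24.8, 13.2 and 18.5 CPM in CDK18KO 1 to 5, and 13.7, 16.2, 31.7, 12.6 and 6.94 CPM in WT 1 to 5. WT 3 was the highest and DKO 2 the lowest, and the groups overlapped. The log2 fold change was -0.58 (SE 0.45, edgeR adjusted p = 0.503) in DKO against WT, 0.08 (SE 0.42, adjusted p = 0.939) in CDK18KO against WT and -0.66 (SE 0.45, adjusted p = 0.993) in DKO against CDK18KO. Without WT 3 the value in DKO against WT was -0.19, and without DKO 2 it was -0.33. The table also counts Kpna2rt, named as a retrotransposed copy of Kpna2, and the member held 5.76 to 23.2% of the counts of the pair, depending on the library. In the GENCODE M21 transcripts the last 400 bases of Kpna2 are 100% identical to those of Gm10184, a symbol outside the count table, and whether that gene is Kpna2rt was not settled here. Summed over the pair, the level was 67.1, 78.3, 123 and 112 CPM in DKO 1 to 4, 136, 104, 107, 71.3 and 145 CPM in CDK18KO 1 to 5, and 83.8, 91.2, 161, 122 and 71.7 CPM in WT 1 to 5. The groups overlapped, and with Kpna2 summed with its copies the log2 fold change in DKO against WT was -0.16 (SE 0.30, edgeR adjusted p = 0.791), so the value for the single row is uncertain.

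Nutf2, which carries Ran with GDP back into the nucleus, had very few counts, beside a copy with many. It was listed at 0 in 9 of 14 libraries and had 7 counts in all, while Nutf2-ps1 had 3123. Nutf2-ps1 is annotated as protein-coding, at chr19:53588168-53589068 on GRCm38. The last 400 bases of the 2 genes are 100% identical. For the pair, the level was 57.7 to 81.9 CPM in DKO, 30.1 to 100 CPM in CDK18KO and 67.4 to 117 CPM in WT, and the groups overlapped. The log2 fold change of Nutf2 summed with its copies was -0.28 (SE 0.31, edgeR adjusted p = 0.639) in DKO against WT and -0.34 (SE 0.29, adjusted p = 0.577) in CDK18KO against WT. Of the 33 members, 6 had a near-identical 3′ end elsewhere in the annotation (at least 95% identity over at least 200 bases): Ipo4, Kpna2, Nutf2, Tnpo1, Xpo4 and Xpot. For Ipo4, Tnpo1 and Xpot the copies found in the table had 0 to 11 counts against 3145 to 8319 of the member, and for Xpo4 the copy Gm17873 had 150 against 2599.

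**Figure D2:**
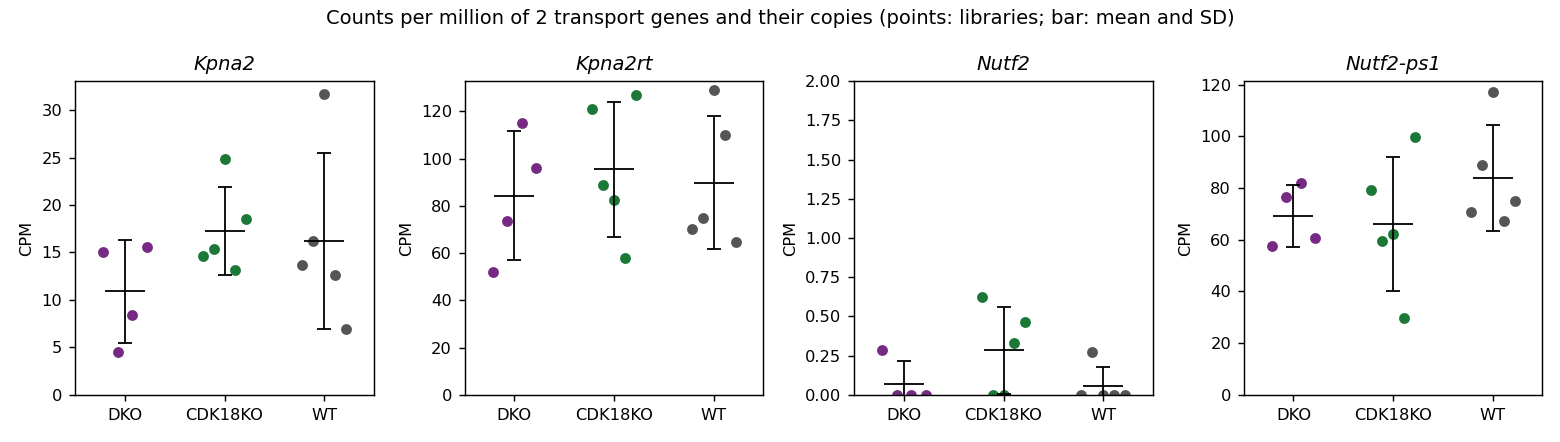
CPM per library (y axis) of Kpna2, Kpna2rt, Nutf2 and Nutf2-ps1 (panels) in DKO, CDK18KO and WT (x axis), 1 point per library with the group mean and SD. Kpna2rt and Nutf2-ps1 hold most of the counts of their pairs, and the groups overlap in each panel.

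Among the importins beta and transportins, 11 of 11 were below 0 in DKO against WT, with a median log2 fold change of -0.27, and 6 of 11 in CDK18KO against WT, with a median of -0.03. Kpnb1, the receptor that pairs with importin alpha, had 151, 208, 231 and 163 CPM in DKO 1 to 4, 248, 166, 242, 244 and 239 CPM in CDK18KO 1 to 5, and 242, 181, 236, 294 and 211 CPM in WT 1 to 5. DKO 1, DKO 4, CDK18KO 2 and WT 2 were low, and the groups overlapped. Its log2 fold change was -0.31 (SE 0.22, edgeR adjusted p = 0.461) in DKO against WT, -0.03 (SE 0.20, adjusted p = 0.951) in CDK18KO against WT and -0.27 (SE 0.22, adjusted p = 0.993) in DKO against CDK18KO.

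Ipo9, an import receptor for actin and for histones H2A and H2B, was the 1 member for which WT lay apart from both knockout groups. It stood at 32.6, 26.5, 34.3 and 30 CPM in DKO 1 to 4, at 35.1, 35.6, 42.2, 29.7 and 44.5 CPM in CDK18KO 1 to 5, and at 48.9, 46.8, 47.7, 51.4 and 48.6 CPM in WT 1 to 5. Every DKO and every CDK18KO library lay below every WT library, and DKO overlapped CDK18KO. In DKO against WT 1 of the 32 members tested, Ipo9, was lower without overlap, beside 2.46% of all genes. In CDK18KO against WT it was again 1 of 32, beside 1.6% of all genes. In DKO against CDK18KO 0 of 32 separated downwards, beside 0.722% of all genes. The first 2 counts rest on the same WT libraries, and a count of 1 says little about the members as a list. The means were 30.8 ± 3.4 CPM in DKO, 37.4 ± 5.93 CPM in CDK18KO and 48.7 ± 1.70 CPM in WT. The log2 fold change was -0.66 in DKO against WT (SE 0.21, edgeR adjusted p = 0.147), -0.38 in CDK18KO against WT (SE 0.20, adjusted p = 0.344) and -0.28 in DKO against CDK18KO (SE 0.21, adjusted p = 0.993). DESeq2 gave an adjusted p of 0.019 for DKO against WT, and over all alternatives the adjusted p of Ipo9 in this comparison ran from 0.019 to 1, with log2 fold changes from -0.77 to -0.54.

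Ipo9 lies at chr1:135382312-135430499 on the minus strand of GRCm38, 3.24 Mb from Cdk18 at chr1:132112237-132139684. Genes within 5 Mb of Cdk18 were therefore looked at as well, a window chosen after the values were seen. Of 94 such genes tested, 2.13% were lower without overlap in DKO against WT, beside 2.46% of all genes. In CDK18KO against WT 1.06% were, beside 1.6% of all genes. Median log2 fold changes of the 94 were 0.07 and -0.02. Ipo9 is itself among the 94. It was the 1 gene lower without overlap in CDK18KO against WT and 1 of the 2 in DKO against WT. The shares thus include the gene that prompted the look, and an effect of position was not tested.

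The other receptors of this class overlapped between groups. Tnpo1 and Tnpo2 are close relatives that import RNA-binding proteins such as the hnRNPs. Tnpo1 averaged 190 ± 48.3 CPM in DKO, 190 ± 36.7 CPM in CDK18KO and 228 ± 57.6 CPM in WT. Tnpo2 had 75.7 to 90.6 CPM in DKO, 47.9 to 95 CPM in CDK18KO and 76.1 to 122 CPM in WT, and its log2 fold change in CDK18KO against WT was -0.44 (SE 0.23, edgeR adjusted p = 0.349). Tnpo3, which imports splicing factors of the SR family, had the smallest p of the members in DKO against CDK18KO. It stood at 265, 291, 248 and 169 CPM in DKO 1 to 4 and at 298, 241, 350, 378 and 410 CPM in CDK18KO 1 to 5, with 231 to 400 CPM in WT. Only DKO 2, DKO 1 and DKO 3 reached the level of the lowest CDK18KO library, and the log2 fold change was -0.46 (SE 0.24, edgeR adjusted p = 0.91).

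Ipo5 and Ipo7 import ribosomal proteins, among other cargo. Ipo5 averaged 180 ± 52.8 CPM in DKO, 214 ± 63.3 CPM in CDK18KO and 244 ± 49.0 CPM in WT. Ipo7 averaged 262 ± 56.0, 283 ± 61.4 and 310 ± 56.1 CPM, and WT 2 at 212 CPM lay apart from the other WT libraries at 315 to 348 CPM. Ipo8, a close relative of Ipo7, averaged 59.9 ± 17.1 CPM in DKO, 68.5 ± 20.8 CPM in CDK18KO and 65.8 ± 16.4 CPM in WT. Ipo4, an import receptor for histones, averaged 64.4 ± 11.3 CPM in DKO, 80.9 ± 22.3 CPM in CDK18KO and 71.6 ± 25.5 CPM in WT. Ipo11, which imports ubiquitin-conjugating enzymes, averaged 47.3 ± 16.4, 55.6 ± 14.3 and 54.8 ± 12.5 CPM. Ipo13, a receptor that works in both directions, averaged 7.72 ± 3.74 CPM in DKO, 10.4 ± 4.85 CPM in CDK18KO and 9.72 ± 3.00 CPM in WT. For these 6 genes, log2 fold changes in DKO against WT lay between -0.43 and -0.14.

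The exportins had a median log2 fold change of -0.39 in DKO against WT, with 6 of 7 below 0, and of -0.15 in CDK18KO against WT, with 5 of 7 below 0. Xpo1, the receptor for leucine-rich export signals, had 93.1, 174, 256 and 289 CPM in DKO 1 to 4, 301, 186, 301, 194 and 201 CPM in CDK18KO 1 to 5, and 255, 158, 178, 382 and 295 CPM in WT 1 to 5. DKO 1 was the lowest library and WT 4 the highest, and the spread within each group was wider than the differences between group means of 203 ± 87.8, 236 ± 59.2 and 254 ± 90.6 CPM. Its log2 fold change was -0.32 (SE 0.35, edgeR adjusted p = 0.628) in DKO against WT, -0.10 (SE 0.32, adjusted p = 0.899) in CDK18KO against WT and -0.22 (SE 0.34, adjusted p = 0.993) in DKO against CDK18KO. Without DKO 1, the value was -0.08 in DKO against WT and 0.02 in DKO against CDK18KO, and without WT 4 it was -0.13 in DKO against WT.

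Cse1l, the exportin that recycles importin alpha, had 113, 79.4, 144 and 147 CPM in DKO 1 to 4, 136, 76.6, 136, 99.8 and 167 CPM in CDK18KO 1 to 5, and 151, 129, 196, 193 and 120 CPM in WT 1 to 5. DKO and CDK18KO had nearly the same mean, 121 ± 31.5 and 123 ± 35.2 CPM, and WT stood at 158 ± 35.2 CPM, with overlap. Cse1l differed on the log2 scale by -0.39 in DKO against WT (SE 0.28, edgeR adjusted p = 0.467), -0.36 in CDK18KO against WT (SE 0.26, adjusted p = 0.507) and -0.03 in DKO against CDK18KO (SE 0.28, adjusted p = 0.998).

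Xpo4, an exportin for the translation factor eIF5A, stood at 30.3, 44.5, 58.9 and 51.7 CPM in DKO 1 to 4 and at 76.7, 39.9, 93.5, 52.5 and 93.1 CPM in CDK18KO 1 to 5, with 41.3 to 98.3 CPM in WT. Its log2 fold change in DKO against CDK18KO was -0.62 (SE 0.34, edgeR adjusted p = 0.934). Xpo5, which exports microRNA precursors, averaged 59.9 ± 15.9 CPM in DKO, 74.0 ± 19.8 CPM in CDK18KO and 82.0 ± 18.3 CPM in WT. Xpo6 exports actin, and averaged 15.8 ± 5.37, 21.1 ± 8.23 and 24.8 ± 11.2 CPM. Xpo7, a broad exportin, averaged 195 ± 47.4 CPM in DKO, 168 ± 26.2 CPM in CDK18KO and 208 ± 40.9 CPM in WT, and its log2 fold change in CDK18KO against WT was -0.31 (SE 0.21, edgeR adjusted p = 0.486). Xpot, the exportin for transfer RNA, was nearly level, at 197 ± 53.8 CPM in DKO, 202 ± 84.7 CPM in CDK18KO and 194 ± 37.8 CPM in WT. An approximate 95% interval of its log2 fold change in DKO against WT ran from -0.66 to 0.70.

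The Ran cycle genes had the lowest median of the 5 roles in DKO against WT, -0.63, with 5 of 5 tested below 0, and -0.21 in CDK18KO against WT, with 4 of 5 below 0. Ran itself had 405, 251, 392 and 464 CPM in DKO 1 to 4, 468, 312, 549, 334 and 590 CPM in CDK18KO 1 to 5, and 520, 374, 779, 497 and 438 CPM in WT 1 to 5. DKO 2 was the lowest and WT 3 the highest, and the groups overlapped. On the log2 scale Ran differed by -0.46 (SE 0.28, edgeR adjusted p = 0.38) in DKO against WT, -0.21 (SE 0.26, adjusted p = 0.708) in CDK18KO against WT and -0.25 (SE 0.28, adjusted p = 0.993) in DKO against CDK18KO.

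Ranbp1, the cytoplasmic partner that helps Rangap1 to act on Ran, had 103, 116, 160 and 131 CPM in DKO 1 to 4, 224, 169, 196, 100 and 227 CPM in CDK18KO 1 to 5, and 208, 181, 235, 277 and 158 CPM in WT 1 to 5. DKO 3 reached the lowest WT library and CDK18KO 4 lay below every DKO library. Ranbp1 differed on the log2 scale by -0.73 in DKO against WT (SE 0.27, unadjusted p = 0.0158, edgeR adjusted p = 0.166, and 0.0711 to 1 over the alternatives). It was -0.52 in DKO against CDK18KO (SE 0.27, edgeR adjusted p = 0.911).

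Rcc1, the nucleotide exchange factor that sits on chromatin, had 186, 84.5, 158 and 102 CPM in DKO 1 to 4, 246, 87.2, 228, 184 and 382 CPM in CDK18KO 1 to 5, and 299, 246, 339, 206 and 123 CPM in WT 1 to 5. It varied as widely as any member, with a residual SD of 0.64 on the log2 scale, and the groups overlapped through CDK18KO 2, CDK18KO 4 and WT 5. Its log2 fold change was -0.87 in DKO against WT (SE 0.40, edgeR adjusted p = 0.258), -0.11 in CDK18KO against WT (SE 0.37, adjusted p = 0.905) and -0.76 in DKO against CDK18KO (SE 0.40, adjusted p = 0.92).

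Rangap1, the GTPase-activating protein of Ran, had 259, 159, 112 and 134 CPM in DKO 1 to 4 and 182, 189, 199, 261 and 312 CPM in CDK18KO 1 to 5, with 121 to 316 CPM in WT. DKO 1 stood among the CDK18KO libraries and the other DKO libraries below them, which gave -0.46 on the log2 scale (SE 0.31, edgeR adjusted p = 0.992). Without DKO 1 it was -0.76. Ranbp3, a cofactor of Xpo1, had 20.9, 18.0, 19.1 and 13.3 CPM in DKO 1 to 4, 21.7, 18.6, 23.9, 12.2 and 30.1 CPM in CDK18KO 1 to 5, and 36.7, 30.4, 30, 24.3 and 17.0 CPM in WT 1 to 5. Only WT 5 lay within the range of DKO, and the log2 fold change in DKO against WT was -0.63 (SE 0.31, edgeR adjusted p = 0.29).

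**Figure D3:**
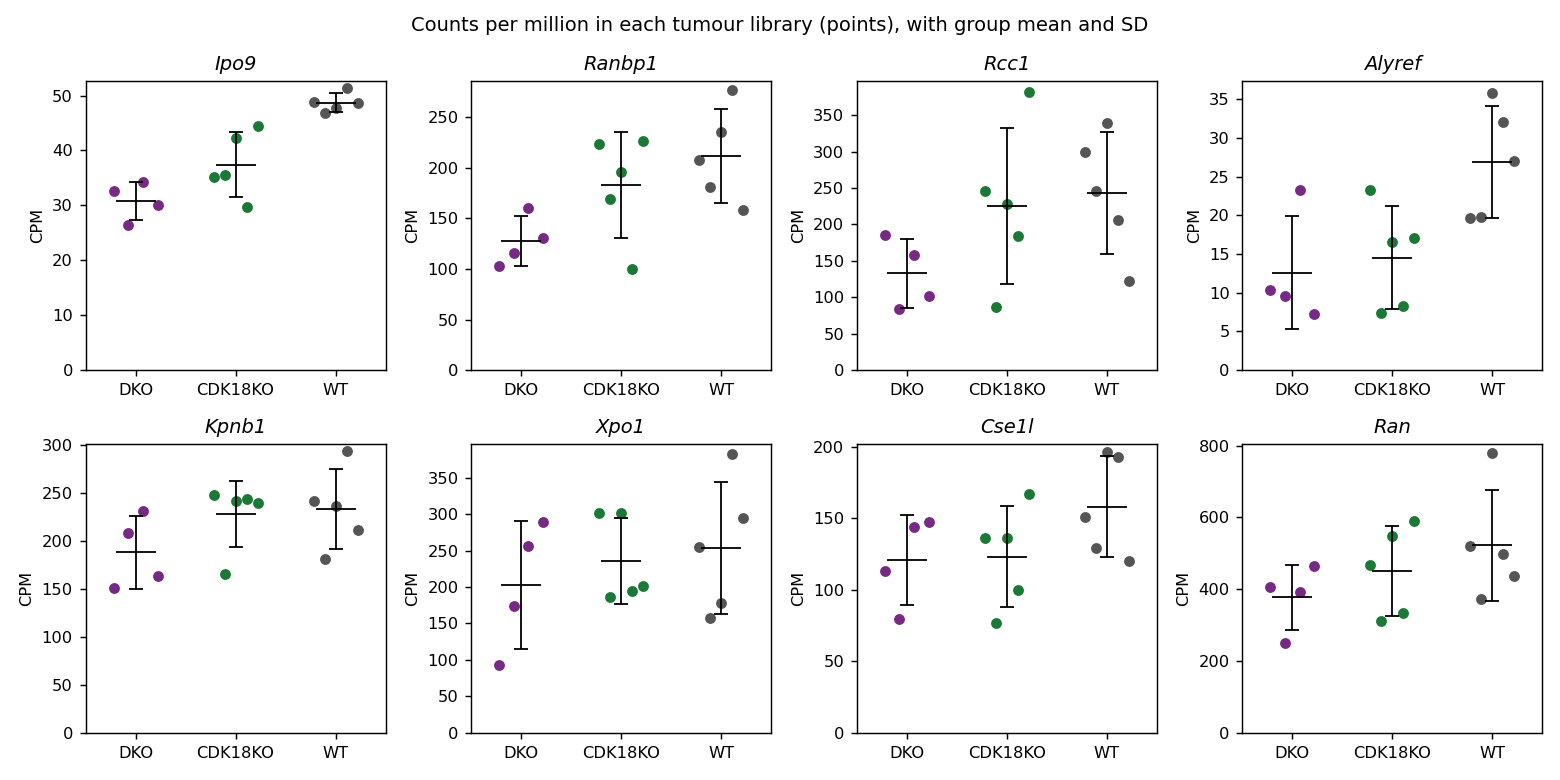
CPM per library (y axis) of Ipo9, Ranbp1, Rcc1, Alyref, Kpnb1, Xpo1, Cse1l and Ran (panels) in DKO, CDK18KO and WT (x axis), 1 point per library with the group mean and SD. For Ipo9 the WT libraries, at 46.8 to 51.4 CPM, lie above every library of the other groups, and for the other genes the groups overlap.

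The mRNA export factors were below 0 in 4 of 4 in both comparisons with WT, with a median log2 fold change of -0.32 in DKO and -0.36 in CDK18KO, and 1 of 4 was below 0 in DKO against CDK18KO. Alyref, the adaptor that hands messenger RNA to Nxf1, had 10.3, 9.58, 23.3 and 7.22 CPM in DKO 1 to 4, 23.3, 7.44, 16.5, 8.26 and 17.1 CPM in CDK18KO 1 to 5, and 19.7, 19.8, 35.8, 32.1 and 27.0 CPM in WT 1 to 5. All but DKO 3 and CDK18KO 1 lay below every WT library. Counts behind these levels were few in some libraries, with 17 in DKO 2, 13 in DKO 4, 14 in CDK18KO 2 and 25 in CDK18KO 4. The WT libraries had 35 to 144. Alyref differed on the log2 scale by -1.08 (SE 0.43, edgeR adjusted p = 0.194, and 0.071 to 1 over the alternatives) in DKO against WT and -0.88 (SE 0.40, adjusted p = 0.279, and 0.126 to 1 over the alternatives) in CDK18KO against WT. Alyref2, a second adaptor gene of this family, had 53.0 ± 15.5 CPM in DKO, 60.3 ± 19.3 CPM in CDK18KO and 78.7 ± 25.9 CPM in WT.

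Ddx39b, the RNA helicase of the same complex, had 78.9 to 209 CPM in DKO, 89.9 to 180 CPM in CDK18KO and 125 to 189 CPM in WT. Its log2 fold change in CDK18KO against WT was -0.45 (SE 0.29, edgeR adjusted p = 0.447). Nxf1, the export receptor, had 33.7, 23.1, 26.9 and 28.9 CPM in DKO 1 to 4, 40.7, 17.5, 32.3, 24.8 and 24.1 CPM in CDK18KO 1 to 5, and 35.2, 35.0, 32.6, 37.2 and 29.3 CPM in WT 1 to 5. Both knockout groups reached into the WT range, and the log2 fold change was -0.27 (SE 0.27, edgeR adjusted p = 0.601) in DKO against WT, -0.28 (SE 0.25, adjusted p = 0.594) in CDK18KO against WT and 0.01 (SE 0.27, adjusted p = 0.999) in DKO against CDK18KO. Nxt1, its partner, averaged 23.1 ± 4.12 CPM in DKO, 21.6 ± 5.33 CPM in CDK18KO and 23.3 ± 4.70 CPM in WT.

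Another 39 genes of nuclear transport, RNA export and Ran binding were listed besides the members, and 36 were tested. In DKO against WT, 29 of 36 were below 0, against 52.1% of all genes, with a median log2 fold change of -0.32 and an all-gene median of -0.04. These genes were measured in the same libraries as the members, so such counts are not separate results. The edgeR test called 0 of them, beside 0.00714% of all genes. At an unadjusted p under 0.05, 3 were lower and 0 higher, beside 5.22% and 13.7% of all genes. Without overlap, 2 of the 36 were lower, beside 2.46% of all genes. DESeq2 called 1, beside 7.41% of all genes. The gene called was Ncbp1, the large subunit of the nuclear cap-binding complex. Ncbp1 averaged 111 ± 12.7 CPM in DKO and 183 ± 32.1 CPM in WT, or -0.73 on the log2 scale (SE 0.25, edgeR adjusted p = 0.154, DESeq2 adjusted p = 0.0458). Phax, the adaptor for export of small nuclear RNA, stood at -0.61 on the log2 scale (SE 0.23, edgeR adjusted p = 0.171), and Ddx19b, a helicase at the cytoplasmic face of the pore, at -0.52 (SE 0.26, adjusted p = 0.294).

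In CDK18KO against WT, 22 of these 36 genes were below 0, against 50.6% of all genes, with a median of -0.07 and an all-gene median of -0.01. The edgeR test and DESeq2 called 0 of them, beside 0.00714% and 6.14% of all genes. At an unadjusted p under 0.05, 1 was higher and 0 lower, beside 11.6% and 5.31% of all genes. The gene was Eny2, a subunit shared by chromatin-modifying and RNA export complexes, which averaged 453 ± 144 CPM in CDK18KO and 288 ± 47.4 CPM in WT (log2 fold change 0.65, SE 0.24, edgeR adjusted p = 0.205). Ncbp1 (-0.43, SE 0.23, edgeR adjusted p = 0.361) and Ranbp10 (-0.38, SE 0.22, adjusted p = 0.40) had smaller differences, in the other direction. In DKO against CDK18KO, 27 of 36 were below 0, against 51.8% of all genes, with a median of -0.22 and an all-gene median of -0.02. There edgeR and DESeq2 called 0, beside 0% and 0.603% of all genes. At an unadjusted p under 0.05, 1 was lower and 0 higher, beside 1.86% and 3.94% of all genes. It was Eif5a, the main cargo of Xpo4, at 266 ± 9.26 CPM in DKO and 385 ± 91.4 CPM in CDK18KO (log2 fold change -0.53, SE 0.22, edgeR adjusted p = 0.756). Sarnp (-0.55, SE 0.26), Eny2 (-0.52, SE 0.26) and Phax (-0.44, SE 0.22) had edgeR adjusted p between 0.866 and 0.913.

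The level of the members also differed between libraries of 1 genotype. The mean deviation of the 32 members from their averages on the log2 scale was -0.34, -0.34, 0.01 and -0.18 in DKO 1 to 4, 0.20, -0.28, 0.19, -0.20 and 0.15 in CDK18KO 1 to 5, while WT 1 to 5 stood at 0.27, -0.02, 0.22, 0.32 and 0.00. DKO 1, DKO 2 and CDK18KO 2 were low and WT 4, WT 1 and WT 3 were high. The summed hepatocyte markers were 8169, 14700 and 7658 CPM in the first 3 and 244.5, 90.85 and 149.6 CPM in the last 3. Summed proliferation markers were 1073, 967.4 and 1568 CPM in the first 3 and 2447, 2307 and 1894 CPM in the last 3. Not all libraries followed this order. CDK18KO 4 and CDK18KO 5 had hepatocyte sums of 3757 and 3648 CPM, with member deviations of -0.20 and 0.15. CDK18KO 2 and WT 2 had proliferation sums of 1568 and 1551 CPM, with member deviations of -0.28 and -0.02.

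Several marker lists also lay to 1 side of 0 between genotypes, though no marker passed the edgeR test. All 12 hepatocyte markers were above 0 in DKO against WT with a median log2 fold change of 3.30, and 11 of 12 in CDK18KO against WT with a median of 2.35, and all 10 proliferation markers were below 0 in DKO against WT, with a median of -0.53. In CDK18KO against WT 5 of the 10 proliferation markers were below 0, with a median of -0.02. Other lists were mixed in DKO against WT: 5 of 7 cholangiocyte, 4 of 7 endothelial and 2 of 9 stellate cell and fibroblast markers were above 0. Their medians were 0.41, 0.52 and -0.21. The edgeR test called 0 markers of any list in the 3 comparisons, where it called at most 0.00714% of all genes. The 6 neutrophil, 6 erythroid and 3 B and plasma cell markers tested were also above 0 in DKO against WT, with medians of 2.88, 1.85 and 3.27. So were the 9 macrophage and Kupffer cell markers, with a median of 0.96. The 4 Y-linked genes were below 0 in each comparison. Their medians were -7.03 in DKO against WT, -5.27 in DKO against CDK18KO and -1.43 in CDK18KO against WT. They summed to at most 2.779 CPM in DKO and at least 3.847 CPM in WT. With the Y-linked level as a covariate, 27 of 32 members were below 0 in DKO against WT, with a median of -0.26. In CDK18KO against WT 21 of 32 were, with a median of -0.07, and in DKO against CDK18KO 22 of 32, with a median of -0.17. The part of the Y-linked genes in the members' values was not tested. In CDK18KO against WT, 7 of 7 cholangiocyte markers and 9 of 9 stellate cell and fibroblast markers were below 0, with medians of -3.82 and -1.68. The 6 neutrophil markers were below 0 there as well, with a median of -1.01. In DKO against CDK18KO, the cholangiocyte, neutrophil, and B and plasma cell markers were all above 0, with medians of 3.28, 4.17 and 4.11. So were all stellate cell and fibroblast, macrophage and Kupffer cell, and erythroid markers, with medians of 1.07, 1.1 and 2.49. All 10 proliferation markers were below 0 in that comparison, with a median of -0.45. Mzb1, a plasma cell marker, was at 0 in every library, and 0 of 8 T and NK cell markers were counted well enough to be tested. In the fits with the hepatocyte marker level as a covariate, Ipo9 had log2 fold changes of -0.54 in DKO against WT and -0.30 in CDK18KO against WT. A covariate that itself differs between genotypes takes part of any genotype difference with it, and the part of cell make-up or proliferation in the members' values was not tested.

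**Figure D4:**
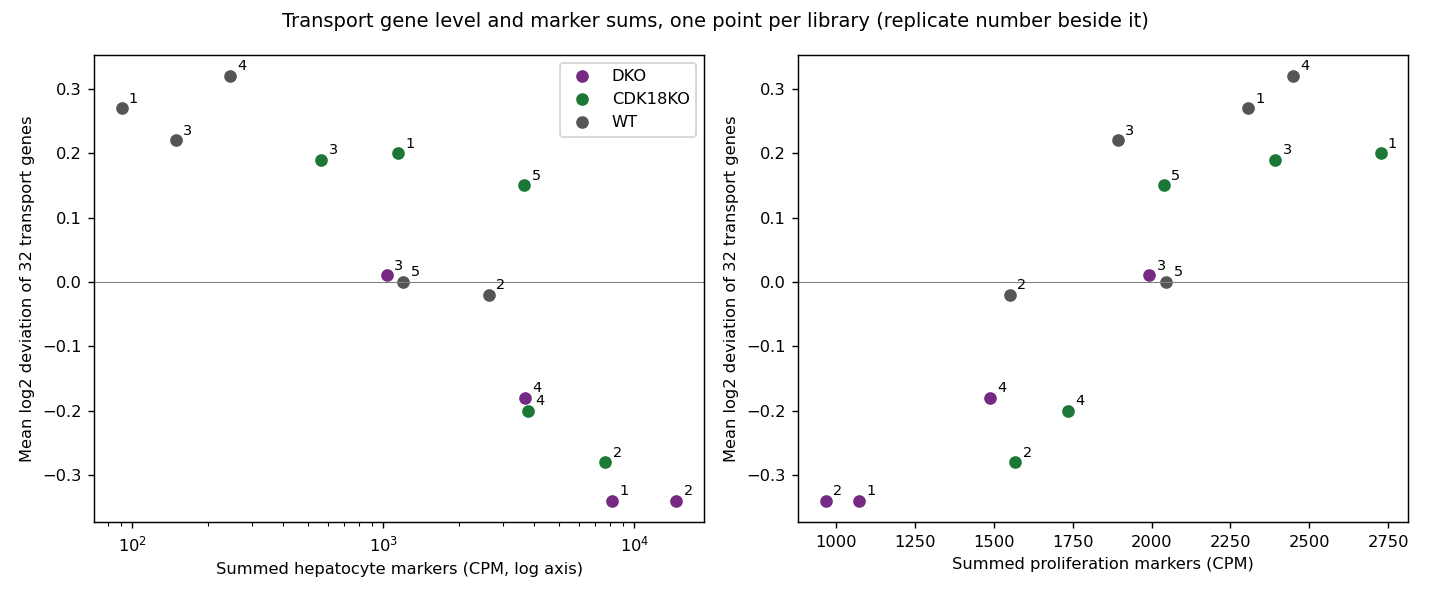
Mean log2 deviation of the 32 members (y axis) against the summed hepatocyte markers (left, CPM, log axis) and the summed proliferation markers (right, CPM, linear axis), 1 point per library, coloured by genotype with the replicate number beside it. DKO 1, DKO 2 and CDK18KO 2 combine the lowest member levels with 7658 to 14700 CPM of hepatocyte markers, and WT 1, WT 3 and WT 4 lie at the upper left of the hepatocyte panel. CDK18KO 4 and CDK18KO 5 differ in member level, at -0.20 and 0.15, with 3757 and 3648 CPM of hepatocyte markers.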

How the data were processed

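RNA of 14 tumours (4 DKO, 5 CDK18KO, 5 WT) was sequenced from 300.0 ng with poly(A) priming, strand information and a 6-base molecular identifier, per the labels' protocols. The deposited table holds raw counts per gene symbol. The submitters' processing notes name, in no order, HTSeq 1.99.2, STAR 2.7.11a, UMI-tools 1.1.2, DESeq2 1.32.0 and FastQC, with the builds GRCh38 and mm10 and no role for either. The annotation counted, and whether identifiers were collapsed, are not given in the sources used here. Whether libraries come from separate animals rests on the submitters calling them biological replicates. Unused columns of single-sample values numbered 0.

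From these counts, CPM were computed with TMM factors. Comparisons were made in edgeR 4.0.16 (R 4.3.3) with its quasi-likelihood F test, two-sided, with all 14 libraries in 1 fit, genes kept by filterByExpr by group (13997 genes, 99% of counts), and Benjamini-Hochberg adjustment over them. Calls were made at an adjusted p under 0.05. Errors are SD, and each SE is the absolute log2 fold change over the root of its F value. The script was checked on simulated data. Common biological variation between libraries of a group was 0.598 as a coefficient. Total counts of 1442417 to 6068209 set the precision, and genes under about 10 CPM rest on few counts. DESeq2 1.42.0 and limma 3.58.1 (voom) served as alternatives, with other factors and filters, a robust fit, the 2 groups alone, covariates, a replicate block and each library left out. Added after seeing the data were members summed with near-identical copies and a fit without the 3 libraries highest in Y-linked genes.

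The members, other lists and markers were chosen with earlier results of these data known. All members are given with their level. Fold changes in full are given for Kpna2, Kpnb1, Xpo1, Cse1l, Ran, Rcc1, Nxf1 and the 5 members with the smallest p in each comparison, and of the other pathway genes for the 4 with the smallest p. A gene that this rule names is not reported here. Gene positions and 3′ ends come from GENCODE M21 (GRCm38), promoters from RefSeq (GRCm38.p6).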

Additional observations from a re-analysis of the deposited data

Results flagged for a closer look

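In 4 of 96 groups of values, the highest or lowest library lay far from the rest of its group, where chance gives about 1 in 20. Kpna1 stood at 164 CPM in CDK18KO 2, against 56.8 to 80.6 CPM in the other CDK18KO libraries. Kpnb1 stood at 166 CPM in the same library, against 239 to 248 CPM in the others. Ipo7 stood at 212 CPM in WT 2, against 315 to 348 CPM in the other WT libraries. Nxt1 stood at 31.4 CPM in WT 3, against 19.3 to 22.4 CPM.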

How the results depend on the processing

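Members called were 0 in each comparison under every alternative, with 1 exception, Ipo9 in DKO against WT by DESeq2 (1 member). Counts of all genes called in CDK18KO against WT and DKO against WT were 856 and 1033 by DESeq2 (84 in DKO against CDK18KO), 173 and 252 with no filter (42), 3 and 2 with the hepatocyte covariate, and 0 and 0 with voom, the Y-linked covariate, only the 2 groups, or without the 3 libraries highest in Y-linked genes. The robust fit called 0 in CDK18KO against WT. With 1 library left out, genes called ran from 0 to 74 (74 without CDK18KO 1), 0 to 1 and, in DKO against CDK18KO, 0 to 2. The cause was not tested.

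With the replicate number as a block, 297 and 438 genes were called in CDK18KO against WT and DKO against WT, and 0 members. Samples share only a number: 6 of 13 same-numbered pairs correlated above 0.1 (-0.23 to 0.65), and 3 of 14 libraries correlated best with their own number. With the block, Nxf1 in DKO against CDK18KO was -0.01.

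Of 918 named fold changes under the alternatives, 34 changed sign, in 12 results. With the hepatocyte covariate these were Kpnb1 (0.21), Xpo1 (0.31), Ran (0.15) and Rcc1 (0.18) in CDK18KO against WT, Kpnb1 (0.04), Xpo1 (0.26), Cse1l (0.11) and Ran (0.05) in DKO against WT, and Cse1l (0.11) in DKO against CDK18KO. The member medians with it were 0.09 in CDK18KO against WT and 0 in DKO against WT. Others were Kpna2 in CDK18KO against WT (-0.03, upper-quartile factors), Kpnb1 there (0.03, no filter), Xpo1 there (0.02, Y-linked covariate), Cse1l in DKO against CDK18KO (0.02 with the Y-linked covariate and 0.02 without the 3 libraries), and Nxf1 there (-0.02 by voom, -0.01 with the stricter filter). With 1 library left out, values ran from -0.13 to 0.47 for Kpna2, -0.11 to 0.06 for Kpnb1, -0.38 to 0.09 for Rcc1 and -0.23 to 0.09 for Xpo1 in CDK18KO against WT, and from -0.16 to 0.13 for Cse1l, -0.12 to 0.19 for Nxf1 and -0.45 to 0.02 for Xpo1 in DKO against CDK18KO. Upper-quartile factors gave an all-gene median of -0.16 in place of -0.04 in DKO against WT and of -0.13 in place of -0.01 in CDK18KO against WT, where 30 of 32 members were then below 0 instead of 21. Without the 3 libraries highest in Y-linked genes, 28 of 32 members were below 0 in DKO against WT, and 26 of 32 in CDK18KO against WT with a median of -0.21.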
